A study of Homo sapiens with 16 samples.

Results

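Semaphorins, plexins and neuropilins are a family of guidance ligands and their receptors, and 10 of their genes were followed here through the response to HGF of cells expressing wt MET or MET∆14. The members were taken by the gene symbol in the deposited count table, 10 of its 42351 genes, and comprised the ligand genes SEMA3A, SEMA3B, SEMA3C, SEMA3F and SEMA4B, the plexins PLXNA1, PLXNB1 and PLXNB2, and the neuropilins NRP1 and NRP2. RNA was sequenced from a lung cancer line of each MET status after 0, 3, 6 or 12 h of HGF, with 2 replicates per condition, which the paper describes as biological, and thus 16 libraries. Every cell had been deprived of serum before HGF, including the cells at 0 h, and the labels and the paper's methods give different durations for this step. The dose of HGF in this experiment was not stated. NCI-H596, a lung adenosquamous carcinoma line that expresses MET lacking exon 14, carried MET∆14. The wt MET line is A549, a lung adenocarcinoma line, in the sample labels, whereas the paper lists EKVX as its wt MET line. A single line stood for each MET status, so MET status and cell line cannot be told apart in any comparison between them.

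Semaphorins are extracellular cues first known for steering axons, and they also act on adhesion and migration of epithelial, tumour and endothelial cells. Class 3 semaphorins are secreted and in most cases bind a neuropilin, which holds the ligand while a plexin of class A carries the signal into the cell. Class 4 semaphorins are membrane proteins that signal through plexins of class B, which can associate with MET at the cell surface. Neuropilins have a short cytoplasmic tail without kinase activity and serve as co-receptors for VEGF as well.

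The total count per library was 13226488 to 21970052 with wt MET and 10158590 to 23909304 with MET∆14. Expression is given as CPM, the count divided by the TMM-scaled library size. Of the 15067 genes that passed the expression filter, all 10 members did. The replicates of MET∆14 at 12 h stood apart from each other, with a chi-square of their counts over its degrees of freedom of 36.12, and those of wt MET at 0 h followed with 10.36, against 2.851 to 4.677 in the other 6 conditions. Both pairs enter results below, where some but not all calls that change without 1 of their libraries are named. The changes at 12 h with MET∆14 are given with their range over fits that leave out single libraries. Each gene's spread was estimated over all 16 libraries, so an SE or p-value for these conditions does not measure the gap between their own replicates. CDKN2A, a gene deleted in A549, had 0 counts in all 8 wt MET libraries. MTAP, listed with it as deleted in A549, was counted there, with 5 to 23 counts per library and a mean of 0.992 CPM. With MET∆14 the means of CDKN2A and MTAP were 139 and 106 CPM. Of the squamous markers, TP63, KRT5, KRT14, KRT6A and DSG3, the summed level was 2350 to 3340 CPM with MET∆14 and 0.97 to 3.1 CPM with wt MET, where KRT14 had no count. The lung adenocarcinoma markers NKX2-1, NAPSA, SFTPB and SFTPC summed to 0.605 to 2.26 CPM in the wt MET libraries, and SFTPB and SFTPC were at 0 there. Epithelial markers summed to 1740 to 2520 CPM with wt MET and to 2020 to 3230 CPM with MET∆14. With wt MET the sum was mostly KRT8 and KRT18 (means of 726 and 1420 CPM), whereas EPCAM and CDH1 averaged 1.46 and 4.94 CPM, against 29.2 and 100 CPM with MET∆14. Fibroblast markers summed to 11.1 to 19.3 CPM with wt MET, where DCN was at 0, and to 187 to 346 CPM with MET∆14, where LUM was at 0. Endothelial markers stayed between 0.404 and 3.22 CPM. The leukocyte list was counted almost wholly through CD68 (means of 38.9 CPM with wt MET and 135 CPM with MET∆14), which shares 81.6% of its exon length with a gene on its own strand. PTPRC and CD3E were at 0 with wt MET and had at most 2 counts in any MET∆14 library. MET itself was counted at 1210 to 1270 CPM at 0 h with wt MET and at 370 CPM in both MET∆14 libraries, and a count per gene does not show whether exon 14 was present.

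Before HGF the lines differed in most of these genes. At 0 h, 9 of the 10 members differed between MET∆14 and wt MET (edgeR's quasi-likelihood F test, Benjamini-Hochberg adjusted p under the threshold of 0.05), 5 higher and 4 lower with MET∆14. The same test was passed by 80.2% of all tested genes, 40.6% higher and 39.6% lower, so the members' count is close to that of genes at large. Their median log2 difference, MET∆14 minus wt MET, was 0.12, against 0.02 over all genes. Differences between bulk cultures cannot tell fewer expressing cells from less RNA per cell.

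Among the ligands, SEMA3F, a secreted semaphorin that signals mainly through NRP2, showed the widest gap. It measured 3.47 and 2.76 CPM with wt MET, from 48 and 39 counts, and 289.7 and 285 CPM with MET∆14. This is a log2 difference of 6.53 (SE 0.131), or 92.1-fold. SEMA4B, a transmembrane class 4 semaphorin, was 2.86-fold higher with MET∆14 (75.5 and 59.4 CPM against 189.9 and 196 CPM, log2 difference 1.52, SE 0.104). SEMA3A, a chemorepellent that binds NRP1, went the other way, with 35.7 and 34.8 CPM against 7.24 and 8.49 CPM, 4.45-fold lower with MET∆14 (log2 difference -2.15, SE 0.117). SEMA3C, which can bind both neuropilins, was 2.70-fold lower (336.7 and 357 CPM against 130.7 and 126 CPM, log2 difference -1.43, SE 0.0754). For SEMA3B, like SEMA3F a gene of the short arm of chromosome 3 and a candidate tumour suppressor of lung, the groups overlapped at 26.1 and 21.7 CPM against 23.1 and 21.0 CPM. Its log2 difference was -0.12, with a 95% interval of -0.36 to 0.12.

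All 3 plexins were higher with MET∆14. PLXNA1, a signalling partner of the neuropilins, measured 49.9 and 37.3 CPM with wt MET and 405.6 and 394.5 CPM with MET∆14, a 9.17-fold difference (log2 difference 3.20, SE 0.147). PLXNB1, the receptor of SEMA4D, was 4.90-fold higher (28.9 and 26.6 CPM against 133.7 and 138 CPM, log2 difference 2.29, SE 0.153). PLXNB2, another class B plexin, differed little, at 417 and 439.7 CPM against 573 and 531 CPM (1.29-fold, log2 difference 0.37, SE 0.105). Both neuropilins were lower with MET∆14. NRP1 was 2.04-fold lower (388 and 353 CPM against 184.6 and 178.9 CPM, log2 difference -1.03, SE 0.102), and NRP2 5.24-fold lower (54.8 and 43.6 CPM against 9.97 and 8.84 CPM, log2 difference -2.39, SE 0.158). Over these 9 genes the adjusted p (edgeR) ranged from 7.75e-15 for SEMA3F to 0.00491 for PLXNB2. Every fit that left out 1 library kept the direction of the 9 differences. The log2 difference lay between 6.39 and 6.70 for SEMA3F and between 0.33 and 0.44 for PLXNB2 in these fits.

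Between genes, levels were compared per length, as CPM per kilobase of annotated exons. PLXNB2 was at the top in both lines, at 58.9 ± 2.20 CPM per kb with wt MET and 76.0 ± 4.09 with MET∆14 (SD, n = 2). With wt MET it overlapped the next gene, SEMA3C (56.9 ± 2.39), and NRP1 (32.2 ± 2.17) and SEMA4B (9.64 ± 1.63) followed apart from their neighbours. SEMA3B, PLXNA1, SEMA3A and NRP2 lay between 3.54 and 4.15 CPM per kb, each within the spread of the next, above PLXNB1 (2.84 ± 0.171) and SEMA3F (0.645 ± 0.105). With MET∆14 the order was PLXNB2, SEMA3F (59.5 ± 0.684), PLXNA1 (35.6 ± 0.695), SEMA4B (27.6 ± 0.624), SEMA3C (21.0 ± 0.531), NRP1 (15.8 ± 0.349), PLXNB1 (13.9 ± 0.329), SEMA3B (3.82 ± 0.253), SEMA3A (0.849 ± 0.0961) and NRP2 (0.677 ± 0.0576), and no neighbours in it overlapped. SEMA3C thus made up 86.9% ± 1.43 of the summed level of the 4 class 3 ligands with wt MET, whereas SEMA3F made up 69.8% ± 0.321 with MET∆14. PLXNB2 held 89.7% ± 1.66 of the 3 plexins' summed level with wt MET and 60.5% ± 1.11 with MET∆14.

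**Figure D1:**
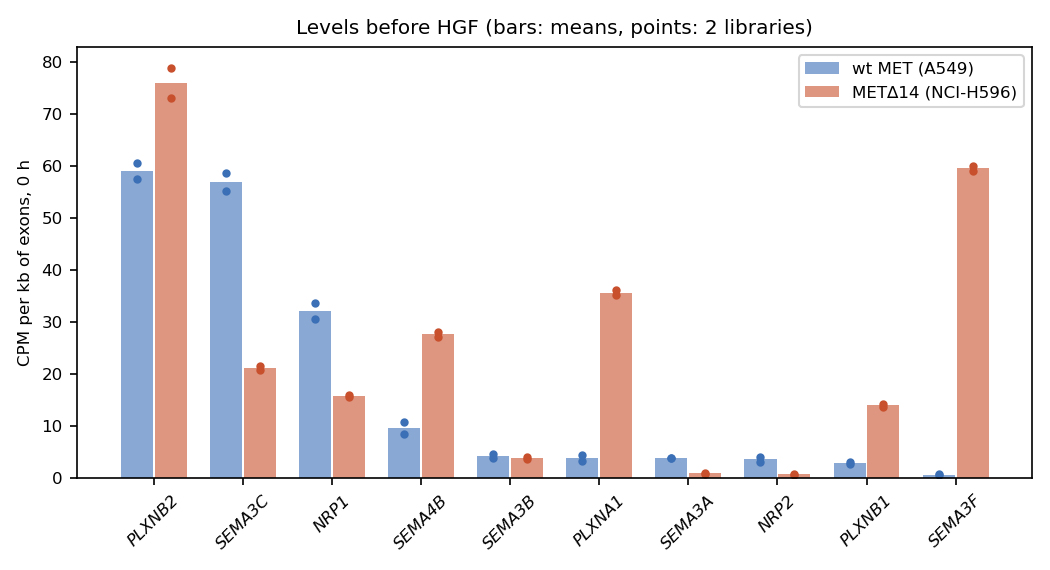
Level of each gene before HGF in CPM per kilobase of exons, with bars at the mean of 2 libraries, points at each library, wt MET in blue and MET∆14 in orange. SEMA3F rises from 0.645 in the wt MET line to 59.5 in the MET∆14 line, whereas SEMA3C stands at 56.9 and 21.0.

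Upon HGF, both neuropilins and the ligands SEMA3A, SEMA4B and, by a small amount, SEMA3C rose in cells expressing MET∆14 at 3 h and 6 h, SEMA3B, SEMA3F, PLXNB1 and PLXNB2 fell at 6 h and 12 h, and PLXNA1 passed at no time. At any of the 3 times, 9 of the 10 members changed with MET∆14 (54.1% of all genes) and 6 with wt MET (40.3%). At 3 h, 8 members changed with MET∆14 (31.7% of all genes), 5 up (15.5%) and 3 down (16.1%). At 6 h it was 9 (44.1%), 5 up (21.6%) and 4 down (22.5%), and at 12 h 8 (38.3%), 3 up (18.3%) and 5 down (20.1%). With wt MET, 2 members changed at 3 h (17.4% of all genes), 1 up (10.3%) and 1 down (7.16%). All 3 that changed at 6 h (34.2%) fell (17.8%), as did all 4 at 12 h (35.1% and 18.2%). The members' median log2 fold change at 3, 6 and 12 h was 0.19, 0.17 and -0.09 with MET∆14 and -0.13, -0.23 and -0.26 with wt MET, beside all-gene medians between -0.05 and 0. Each time point shares its 0 h libraries with the others of its line, so the counts of 1 line are not independent of each other. Without either 12 h MET∆14 library, 8 members passed at any time with wt MET, and the genes passing in all went from 6079 to 8221 and 8104. Leaving out replicate 1 of the wt MET libraries at 0 h gave 5 members (4772 genes in all), leaving out replicate 2 gave 7 (5349), and leaving out replicate 1 of the 12 h wt MET condition gave 4 (4574). With the MET∆14 line fitted alone, 8 of the 9 members passed at any time there (6357 genes in all), PLXNB1 being the exception.

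**Figure D2:**
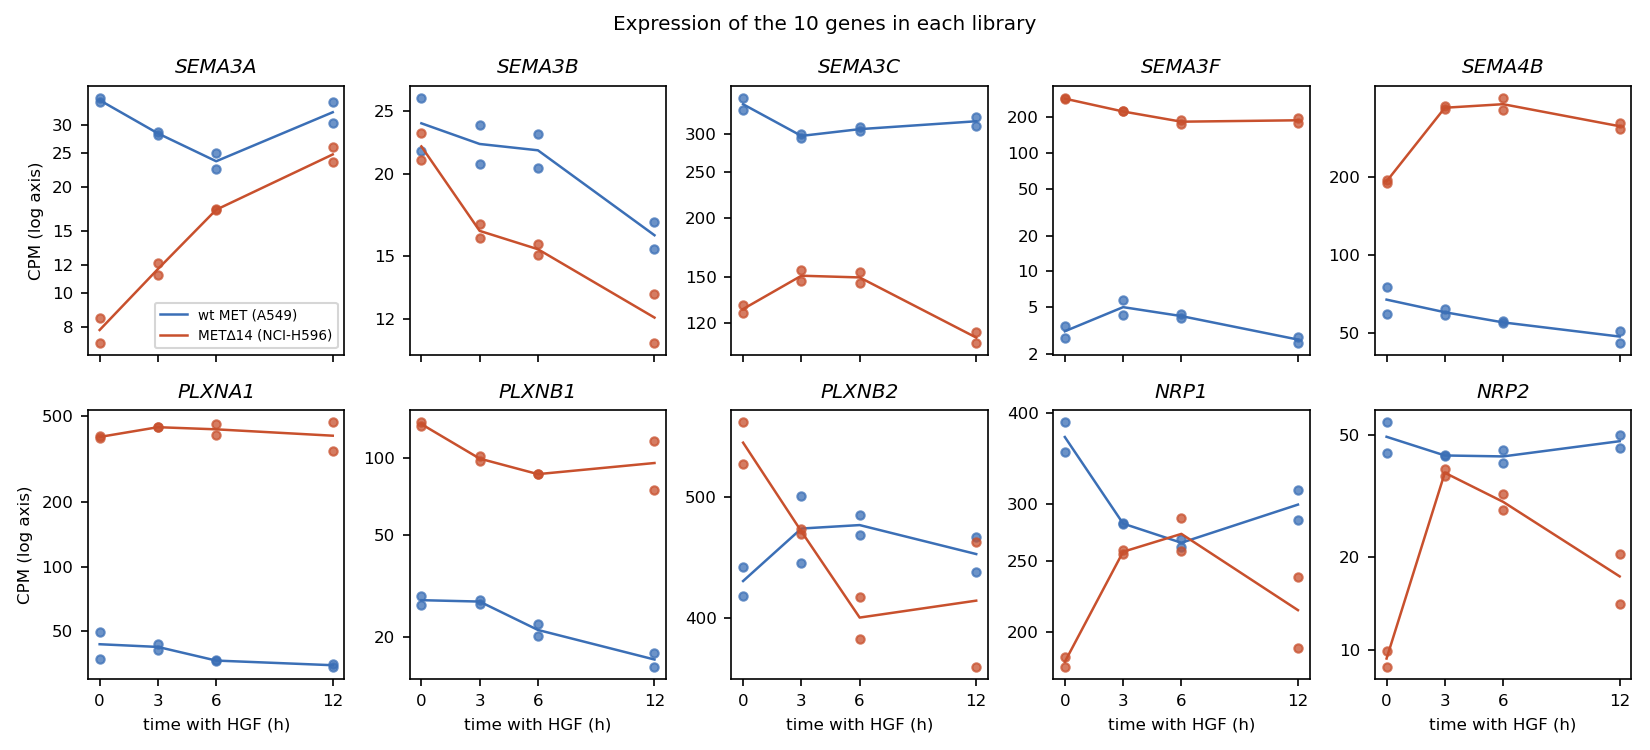
CPM of each gene in every library (log axis, a scale of its own for each gene) against hours with HGF, with points for libraries and lines through the means of 2 replicates, wt MET in blue and MET∆14 in orange. NRP2, SEMA3A, SEMA4B and NRP1 climb in the MET∆14 line, while NRP1 and SEMA4B decline in the wt MET line.

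NRP2, a co-receptor for SEMA3F and SEMA3C and for VEGFC, had the largest change of any member. With MET∆14 it went from 9.97 and 8.84 CPM at 0 h to 36.6 and 38.5 CPM at 3 h, 28.4 and 32.1 CPM at 6 h and 20.5 and 14.2 CPM at 12 h. Both libraries of each later time lay above both at 0 h, and the peak was at 3 h. The rise was 4.01-fold at 3 h (2.0 in log2 fold change, SE 0.159, adjusted p = 2.6e-07, edgeR), 3.24-fold at 6 h (1.70, SE 0.159) and 1.88-fold at 12 h (0.91, SE 0.167, adjusted p = 0.000561, edgeR). Leaving out single libraries moved the 12 h value between 0.60 and 1.12 and kept the call. With wt MET, NRP2 measured 54.8 and 43.6, 42.9 and 42.6, 40.3 and 44.6, and 49.9 and 45.2 CPM at the 4 times, and no time passed the test (95% interval of the log2 fold change at 3 h -0.48 to 0.08). The MET∆14 libraries at 3 h were thus just under the lowest wt MET library, of 40.3 CPM.

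NRP1, the co-receptor for SEMA3A and VEGFA, moved in opposite directions in the lines. With MET∆14 it rose from 184.6 and 178.9 CPM to 259 and 256 CPM at 3 h and 258.5 and 286.7 CPM at 6 h, and stood at 238 and 190.1 CPM at 12 h. The rise was 1.42-fold at 3 h (0.50 in log2 fold change, SE 0.101, adjusted p = 0.00142, edgeR) and 1.5-fold at 6 h (0.59, SE 0.101). At 12 h NRP1 did not pass with MET∆14 (0.24, SE 0.102, adjusted p = 0.077, edgeR), but it did in DESeq2 (adjusted p = 0.0237). With single libraries left out this value lay between 0.06 and 0.38, the highest being without replicate 2 of that condition. With wt MET, NRP1 fell from 388 and 353 CPM to 281 and 282 CPM at 3 h, 262 and 268 CPM at 6 h and 285 and 314 CPM at 12 h, and no later library reached the lower one at 0 h. The decrease was 1.32-fold at 3 h (-0.40 in log2 fold change, SE 0.101, adjusted p = 0.0133, edgeR), 1.40-fold at 6 h (-0.48, SE 0.101) and 1.24-fold at 12 h (-0.31, SE 0.101, adjusted p = 0.0267, edgeR). The 3 h call was lost without replicate 1 of 0 h (adjusted p = 0.115, edgeR) or either 3 h library (adjusted p = 0.0987 and 0.0899), and the 12 h call without replicate 1 of 0 h (adjusted p = 0.177, edgeR) or of 12 h (adjusted p = 0.184).

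As a share of the summed level of both neuropilins per kilobase, NRP2 was 4.29% and 3.94% at 0 h with MET∆14, 10.5% and 11.1% at 3 h, 8.36% and 8.49% at 6 h, and 6.67% and 5.82% at 12 h. With wt MET the group means stayed between 9.88% and 11.7%. NRP1 remained the main neuropilin in every library.

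**Figure D3:**
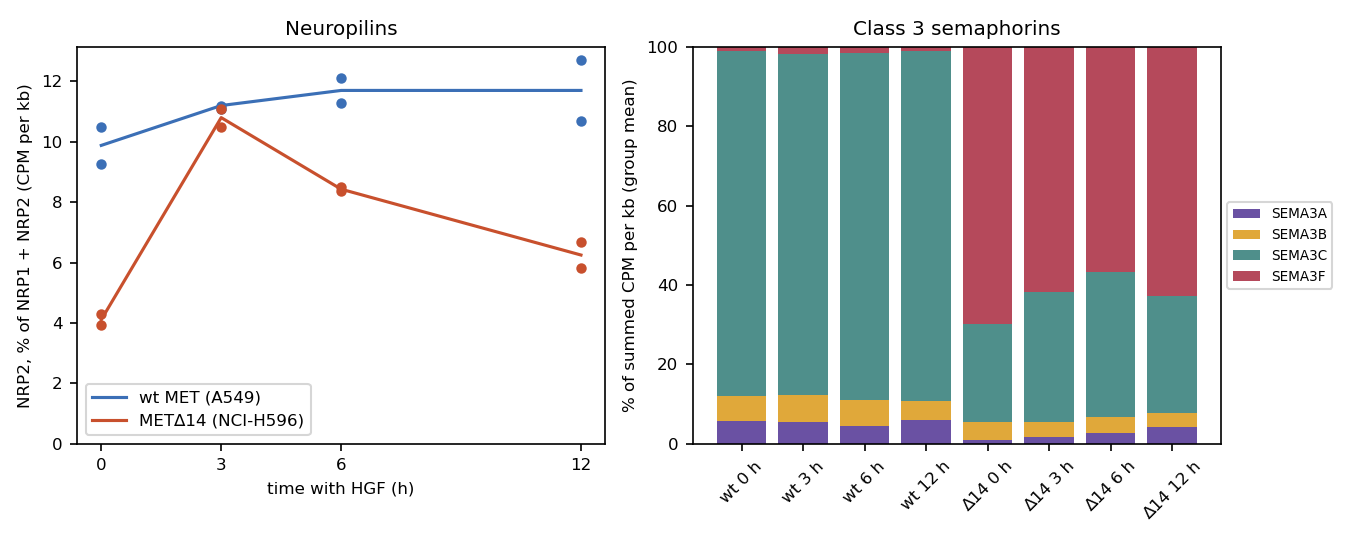
Left, NRP2 as a percentage of the summed CPM per kilobase of NRP1 and NRP2 in each library (points) with group means (lines), against hours with HGF. Right, mean share of each class 3 ligand in their summed CPM per kilobase in the 8 conditions, where SEMA3C fills 86.0% to 88.4% with wt MET and SEMA3F 56.7% to 69.8% with MET∆14.

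Of the ligands, SEMA3A rose steadily with MET∆14. It measured 7.24 and 8.49 CPM at 0 h, 11.2 and 12.2 CPM at 3 h, 17.3 and 17.2 CPM at 6 h, and 25.9 and 23.6 CPM at 12 h, with no overlap between successive times. The rise was 1.48-fold at 3 h (log2 fold change 0.57, SE 0.126), 2.18-fold at 6 h (1.12, SE 0.120) and 3.14-fold at 12 h (1.65, SE 0.119, adjusted p = 1.65e-07, edgeR), and the 12 h value stayed between 1.54 and 1.77 when single libraries were left out. With wt MET the same gene dipped, from 35.7 and 34.8 CPM to 28.1 and 28.6 CPM at 3 h and 24.9 and 22.4 CPM at 6 h, and returned to 30.4 and 34.7 CPM at 12 h. Only the 6 h value passed (log2 fold change -0.57, SE 0.106, adjusted p = 0.000776, edgeR), a 1.49-fold decrease. Its 3 h change was -0.31 (SE 0.106, adjusted p = 0.0552, edgeR), which passed without either 12 h MET∆14 library (adjusted p = 0.0201 and 0.0303).

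SEMA4B rose with MET∆14 and declined with wt MET. With MET∆14 it measured 189.9 and 196 CPM at 0 h, 367 and 376 CPM at 3 h, 362 and 404 CPM at 6 h, and 323 and 307 CPM at 12 h, all later libraries above both at 0 h. The rise was 1.92-fold at 3 h (0.94 in log2 fold change, SE 0.0997, adjusted p = 4.25e-06, edgeR), 1.99-fold at 6 h (0.99, SE 0.0996) and 1.63-fold at 12 h (0.71, SE 0.0995, and 0.67 to 0.73 with single libraries left out). With wt MET it measured 75.5 and 59.4, 62.0 and 58.6, 55.6 and 54.7, and 46.0 and 51.2 CPM, where the 2 libraries at 0 h differed from each other more than the 0 h mean differed from the 3 h mean. Its 12 h decrease was 1.39-fold (log2 fold change -0.48, SE 0.106, adjusted p = 0.00292, edgeR) and was lost without replicate 1 of 0 h (-0.29, adjusted p = 0.0571). The 6 h value passed narrowly (-0.29, SE 0.106, adjusted p = 0.0444, edgeR) and did not pass with DESeq2's size factors (adjusted p = 0.0518), without a filter, or without any one of 13 libraries (adjusted p up to 0.508).

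The windows around the annotated starts of NRP2 and SEMA4B, which rose together with MET∆14, are shown as RefSeq gives them on GRCh38.p14, 250 bases before to 50 after the start. For each gene the RefSeq start nearest to the 5′ end of the GENCODE gene was taken, which lies 511 bases from it for NRP2 (chr2:205682251-205682550, plus strand) and 24316 bases downstream of it for SEMA4B (chr15:90184670-90184969, plus strand). Capitals mark letters of the searched motifs on either strand, here GGGCGG (SP factors, also written CCGCCC on the other strand) and TGTTTAC (FOXO factors, GTAAACA on the other strand).
NRP2: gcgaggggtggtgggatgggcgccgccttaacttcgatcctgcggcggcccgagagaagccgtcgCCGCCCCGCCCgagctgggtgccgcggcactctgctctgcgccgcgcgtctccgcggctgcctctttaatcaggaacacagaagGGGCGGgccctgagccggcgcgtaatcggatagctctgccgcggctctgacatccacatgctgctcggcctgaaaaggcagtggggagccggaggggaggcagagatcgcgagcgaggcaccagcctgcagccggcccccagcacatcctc
SEMA4B: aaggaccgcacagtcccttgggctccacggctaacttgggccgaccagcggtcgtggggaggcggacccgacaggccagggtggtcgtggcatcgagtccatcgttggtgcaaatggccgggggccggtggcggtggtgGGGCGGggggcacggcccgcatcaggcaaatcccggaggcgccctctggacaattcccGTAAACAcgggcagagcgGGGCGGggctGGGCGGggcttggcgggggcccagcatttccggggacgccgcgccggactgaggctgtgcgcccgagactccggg

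The NRP2 window holds 3 SP matches and the SEMA4B window 3 SP matches and 1 FOXO match. SEMA4B has 3 windows, and its other windows hold no FOXO match. SP letters occur in 45% and FOXO letters in 3.42% of the 35116 RefSeq promoter windows of this length. RefSeq windows were found for 8 of the 10 members (18 windows), and SEMA3A and NRP1 had none in the table used. None of the 18 holds the AP-1 letters TGANTCA, which 7.71% of all windows hold, or the E-box CACGTG (7.26%). The CRE letters TGACGTCA occur in 1 of the 18 (1.85% of all windows), GGAATG for TEAD factors in 4 (14.0%), CCGGAAG for ETS factors in 3 (10.3%) and SP letters in 13. A match is a run of letters, overlapping runs were counted separately, and several windows belong to the same gene.

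SEMA3C changed little. With MET∆14 it measured 130.7 and 126 CPM at 0 h, 155 and 147 CPM at 3 h, 146 and 154 CPM at 6 h, and 115 and 109 CPM at 12 h, so both earlier times lay above and 12 h below the 0 h libraries. The log2 fold changes were 0.23 (SE 0.0749, adjusted p = 0.0273, edgeR), 0.22 (SE 0.0747, adjusted p = 0.0249) and -0.20 (SE 0.0754, adjusted p = 0.0494). The 12 h value lay between -0.24 and -0.18 with single libraries left out. The 3 h and 6 h calls were lost without either library of 0 h or of the same time (adjusted p 0.0527 to 0.189), and the 12 h call without any one of 13 libraries (adjusted p up to 0.21). With wt MET it measured between 294 and 357 CPM and no time passed (log2 fold change at 3 h -0.22, SE 0.0736, adjusted p = 0.0503, edgeR), although without either 12 h MET∆14 library both 3 h (adjusted p = 0.00832 and 0.0182) and 6 h did (adjusted p = 0.0227 and 0.0459), and 3 h also passed in DESeq2 (adjusted p = 0.0169).

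SEMA3B and SEMA3F fell with MET∆14. SEMA3B went from 23.1 and 21.0 CPM at 0 h to 16.8 and 15.96 CPM at 3 h, 15.6 and 15.04 CPM at 6 h, and 13.1 and 11.03 CPM at 12 h, a 1.35-fold, 1.44-fold and 1.81-fold decrease (the last -0.85 on the log2 scale, SE 0.132, adjusted p = 0.000141, edgeR). The 12 h value lay between -0.996 and -0.761 with single libraries left out and always passed. Its 3 h call (log2 fold change -0.43, adjusted p = 0.0179, edgeR) was lost without replicate 1 of 0 h (adjusted p = 0.122) or either 3 h library (adjusted p = 0.0616 and 0.108). With wt MET, SEMA3B was at 26.1 and 21.7, 23.8 and 20.7, 20.5 and 23.0, and 15.3 and 16.9 CPM, and fell by 12 h only, 1.49-fold (log2 fold change -0.57, SE 0.127, adjusted p = 0.00283, edgeR).

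SEMA3F was 289.7 and 285 CPM at 0 h with MET∆14, 224 CPM in both libraries at 3 h, 176 and 190.9 CPM at 6 h, and 197 and 179.9 CPM at 12 h. The decrease was 1.28-fold at 3 h (-0.36 in log2 fold change, SE 0.0883, adjusted p = 0.00568, edgeR), 1.56-fold at 6 h (-0.65, SE 0.0885) and 1.52-fold at 12 h (-0.61, SE 0.0887, and -0.68 to -0.55 with single libraries left out). With wt MET it rose at 3 h, from 3.47 and 2.76 CPM to 5.67 and 4.28 CPM, a 1.61-fold change (log2 fold change 0.69, SE 0.176, adjusted p = 0.0131, edgeR) that rests on 39 to 85 counts per library. This call was lost without replicate 2 of 0 h (adjusted p = 0.0824, edgeR) or replicate 1 of 3 h (adjusted p = 0.229). At 6 h it was 3.995 and 4.37 CPM and at 12 h 2.81 and 2.49 CPM, neither of which passed. The genes SEMA3F and SEMA3B are neighbours on chromosome 3, with 78483 bases between them.

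Among the plexins, PLXNB1 and PLXNB2 fell with MET∆14 and PLXNA1 did not pass at any time. PLXNB1 went from 133.7 and 138 CPM at 0 h to 97.3 and 102 CPM at 3 h, 86.3 and 86.8 CPM at 6 h, and 117 and 74.8 CPM at 12 h, where the replicates were far apart. The log2 fold changes were -0.45 (SE 0.141, adjusted p = 0.0242, edgeR), -0.65 (SE 0.141, adjusted p = 0.00163) and -0.50 (SE 0.141, adjusted p = 0.0117). Its 3 h call was lost without either library of 0 h or of 3 h (adjusted p 0.0718 to 0.132), and the 12 h call without replicate 2 of 0 h (adjusted p = 0.0582). With the MET∆14 line fitted alone, neither passed (adjusted p = 0.111 at 3 h and 0.0569 at 12 h, edgeR), while 6 h did. The 12 h value was between -0.86 and -0.23 with single libraries left out. With wt MET, PLXNB1 was 28.9 and 26.6, 27.9 and 26.9, 22.4 and 20.1, and 17.3 and 15.2 CPM, and passed at 12 h, a 1.70-fold decrease and the largest fold change of a member in that line (log2 fold change -0.77, SE 0.165, adjusted p = 0.00237, edgeR). The 6 h value, -0.39 (adjusted p = 0.0818, edgeR), passed without either 12 h MET∆14 library (adjusted p = 0.00156 and 0.00246).

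PLXNB2 measured 573 and 531 CPM with MET∆14 at 0 h, 467 and 471 CPM at 3 h, 385 and 416 CPM at 6 h, and 461 and 366 CPM at 12 h. It passed at 6 h, a 1.38-fold decrease (log2 fold change -0.46, SE 0.105, adjusted p = 0.00234, edgeR), and at 12 h, 1.34-fold (-0.42, SE 0.105, adjusted p = 0.00585), which was lost without replicate 1 of 0 h (adjusted p = 0.0547) and lay between -0.59 and -0.27 with single libraries left out. At 3 h it did not pass (-0.24, adjusted p = 0.104, edgeR), but did without either 12 h MET∆14 library (adjusted p = 0.01 and 0.00939). With wt MET it lay between 417 and 501 CPM and no time passed (95% interval at 6 h -0.06 to 0.35).

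PLXNA1 was 405.6 and 394.5, 444 and 444, 408 and 460.5, and 468 and 343 CPM with MET∆14. Its log2 fold changes were 0.15 (95% interval -0.11 to 0.41), 0.12 (-0.14 to 0.38) and 0.02 (-0.24 to 0.28). With wt MET it was 49.9 and 37.3, 43.9 and 40.9, 36.9 and 36.3, and 34.3 and 35.5 CPM. The 12 h value there, -0.32 (95% interval -0.61 to -0.04, adjusted p = 0.101, edgeR), passed without replicate 2 of 0 h (adjusted p = 0.0191) or either 12 h MET∆14 library (adjusted p = 0.0165 and 0.0122).

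Of the members that fell with MET∆14, the windows of SEMA3F (chr3:50154808-50155107, plus strand, start 13 bases from the GENCODE 5′ end) and PLXNB1 (chr3:48430037-48430336, minus strand, start at that end) are shown in the same way. Capitals mark GGGCGG and, in PLXNB1, CCGGAAG (ETS factors).
SEMA3F: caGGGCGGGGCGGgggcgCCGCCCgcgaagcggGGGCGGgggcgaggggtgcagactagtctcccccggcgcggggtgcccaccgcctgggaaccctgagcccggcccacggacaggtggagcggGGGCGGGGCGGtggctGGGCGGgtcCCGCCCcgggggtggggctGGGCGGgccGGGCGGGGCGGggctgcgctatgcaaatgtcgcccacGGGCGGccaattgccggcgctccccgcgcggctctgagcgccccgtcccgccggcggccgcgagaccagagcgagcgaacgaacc
PLXNB1: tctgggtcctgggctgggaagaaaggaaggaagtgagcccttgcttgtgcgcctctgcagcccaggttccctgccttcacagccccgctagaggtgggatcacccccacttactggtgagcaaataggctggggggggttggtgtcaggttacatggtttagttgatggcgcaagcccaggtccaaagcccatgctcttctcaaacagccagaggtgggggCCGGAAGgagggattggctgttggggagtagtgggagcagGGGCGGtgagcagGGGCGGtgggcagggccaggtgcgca

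The SEMA3F window holds 12 SP matches, several of them overlapping, in 81.3% G and C, and the PLXNB1 window 2 SP matches and 1 ETS match in 62.3% G and C. Other windows of these genes differ. That of PLXNB1 at chr3:48429295-48429594 holds 5 SP matches, 1 ETS match and 1 TEAD match in 79.7% G and C. Those of SEMA3F have 80.7% and 53.0% G and C, with 2 and 0 SP matches. For NRP2 and SEMA4B the content was 70.0% and 72.3%, and the median of all windows was 58.7%.

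**Figure D4:**
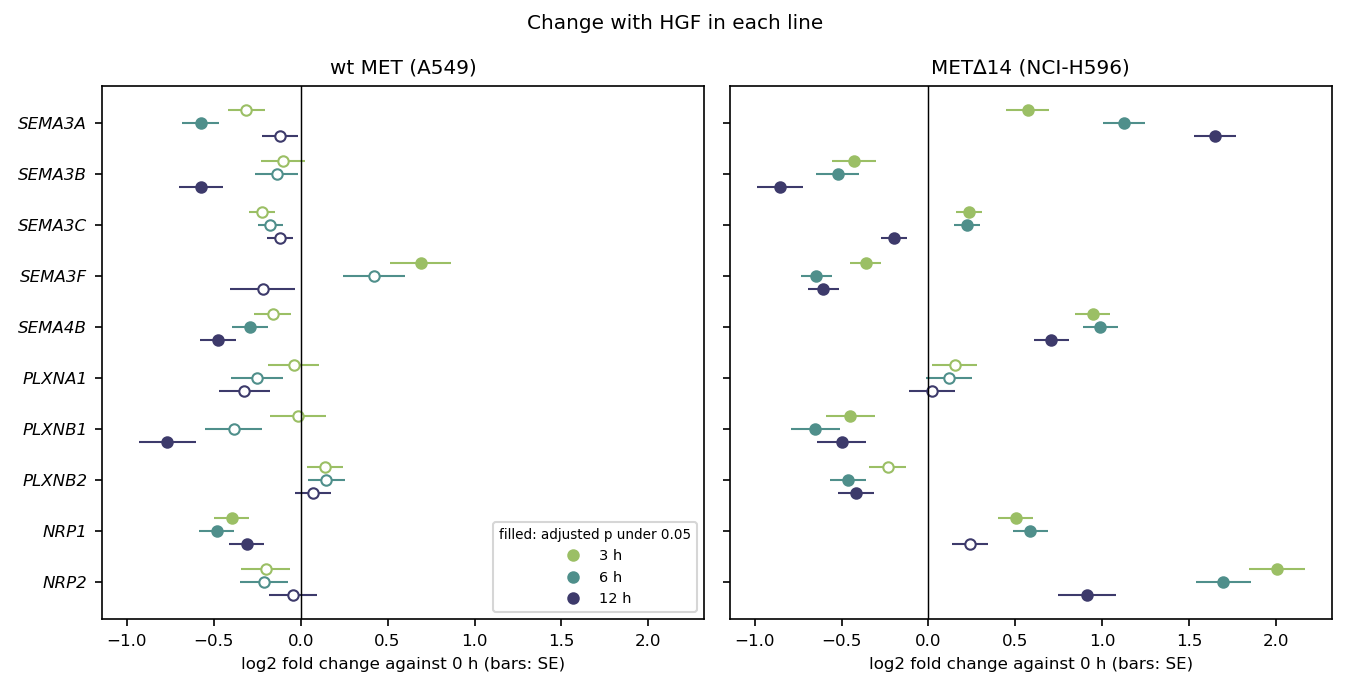
Log2 fold change of each gene against 0 h of its line at 3, 6 and 12 h of HGF, wt MET left and MET∆14 right, with bars of 1 SE. Filled points passed the test, and in the MET∆14 panel NRP2 reaches 2.0 at 3 h and SEMA3A 1.65 at 12 h, whereas in the wt MET panel the value farthest from 0 is -0.77, for PLXNB1 at 12 h.

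The responses themselves were then compared, by an F test over the 3 differences of the time contrasts. It was passed by 7 of the 10 members (37.6% of all genes), namely SEMA3A, SEMA3C, SEMA3F, SEMA4B, PLXNB2, NRP1 and NRP2, whereas SEMA3B (adjusted p = 0.282, edgeR), PLXNA1 (0.365) and PLXNB1 (0.0701) did not pass. For NRP2 the log2 fold change with MET∆14 exceeded that with wt MET by 2.21 (SE 0.212) at 3 h, 1.91 (SE 0.212) at 6 h and 0.96 (SE 0.217) at 12 h. SEMA3A differed by 0.88 (SE 0.165), 1.70 (SE 0.160) and 1.77 (SE 0.158), a gap that widened with time. SEMA4B differed by 1.10, 1.28 and 1.18 (SE 0.145 each), and NRP1 by 0.90, 1.07 and 0.55 (SE 0.143 each). SEMA3F differed the other way, by -1.05 (SE 0.197), -1.07 (SE 0.198) and -0.39 (SE 0.209), and PLXNB2 by -0.37, -0.61 and -0.49 (SE 0.149 each). SEMA3C differed by 0.45, 0.40 and -0.08 (SE 0.105 each). PLXNB2 was lost without replicate 1 of 0 h of either line, which left 6 members. PLXNB1 passed in DESeq2, with DESeq2's size factors in edgeR and without a filter, which gave 8 members each. It also passed without either 12 h MET∆14 library, and PLXNA1 without replicate 2 of that condition, which gave 8 and 9 members as the genes passing in all went from 5660 to 7189 and 8372.

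**Figure D5:**
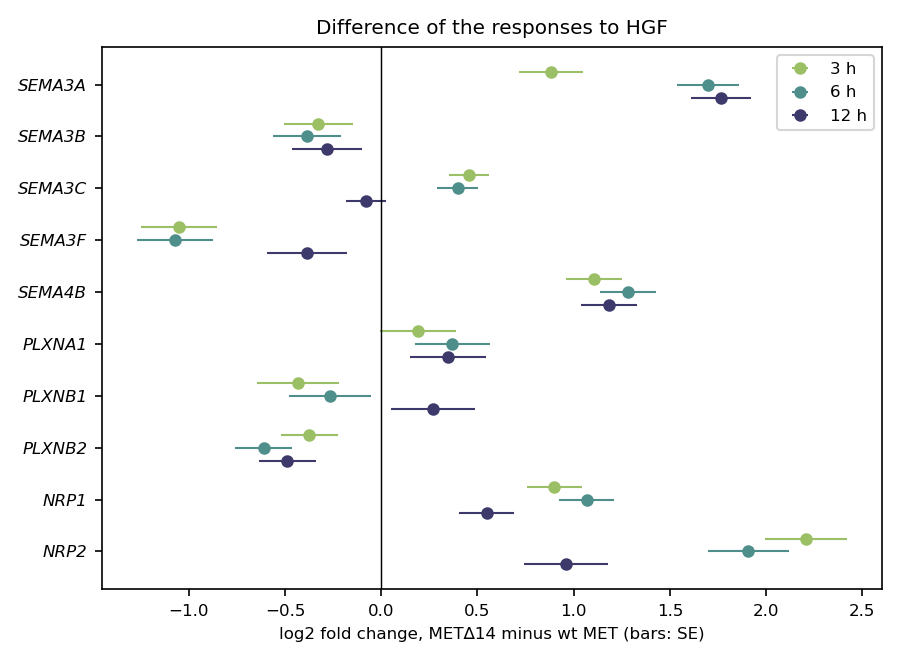
Difference between the lines in the log2 fold change of each gene, MET∆14 minus wt MET, at 3, 6 and 12 h of HGF, with bars of 1 SE. NRP2, SEMA3A, SEMA4B and NRP1 lie to the right of 0 at every time and PLXNB2, SEMA3B and SEMA3F to the left.

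The study's own formula, in which line and time are added, asks for a time effect common to both lines. SEMA3B (adjusted p = 0.00156, edgeR) and PLXNB1 (adjusted p = 0.0114), which fell in both lines, passed it, 2 of the 10 members against 30.6% of all genes. Without a filter on low counts 6 members passed, a count that cannot be set against the 30.6%, which belongs to the filtered fit.

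The 21 other semaphorin and plexin genes of the table, of which 19 were tested, passed at any time in 3 cases with wt MET (15.8%, beside 40.3% of all genes) and in 9 with MET∆14 (47.4%, beside 54.1%). At 3, 6 and 12 h with MET∆14, 3, 3 and 3 of them rose (15.5%, 21.6% and 18.3% of all genes). In the same order 4, 7 and 6 fell (16.1%, 22.5% and 20.1%). With wt MET 2, 3 and 2 rose (10.3%, 16.4% and 16.9%) and 0, 1 and 2 fell (7.16%, 17.8% and 18.2%). SEMA7A, a membrane-anchored semaphorin that binds PLXNC1 and integrins, rose in both lines, from 2.97 to 3.25 CPM at 0 h to 23.4 to 29.7 CPM at 6 h in the wt MET line (3.09 on the log2 scale, SE 0.175) and from 1.39 to 1.63 CPM to 10.6 to 11.7 CPM with MET∆14 (2.90, SE 0.198). SEMA7A held this rise at 12 h with MET∆14 (2.31, SE 0.211) and less so with wt MET (0.70, SE 0.199), and its responses differed (adjusted p = 8.8e-05, edgeR). SEMA6A, a transmembrane ligand of class A plexins, rose with wt MET at 6 h (2.67, SE 0.207), from 1.95 to 3.04 CPM to 14.8 to 17.0 CPM, whereas with MET∆14 no time passed (6 h 0.27, SE 0.170), and its responses differed (adjusted p = 7.34e-05, edgeR). The 2 other named genes of this group, both falling with MET∆14, had their lowest level at 3 h. SEMA6D, with at most 1 count in any wt MET library, fell from 18.0 to 19.0 CPM to 3.51 to 4.07 CPM (-2.29, SE 0.213). SEMA4D, the ligand of PLXNB1, fell from 17.1 to 17.7 CPM to 5.86 to 6.00 CPM (-1.55, SE 0.192). At 12 h SEMA4D was lower in both lines, by -0.68 (SE 0.181) with MET∆14 and -0.72 (SE 0.222, adjusted p = 0.0198, edgeR) with wt MET. Its test at any time did not pass with wt MET (adjusted p = 0.0858, edgeR), and its responses differed (adjusted p = 0.00716, edgeR). At 0 h, 17 of the 19 differed between the lines (89.5%, beside 80.2% of all genes). With MET∆14, 13 were higher (40.6% of all genes) and 4 lower (39.6%).

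Of 50 partners and effectors, among them co-receptors, VEGF ligands, proteases, kinases and small GTPase regulators that act with these proteins, 48 were tested. At any time 24 changed with wt MET (50%, beside 40.3% of all genes) and 26 with MET∆14 (54.2%, beside 54.1%). In 17 the responses differed (35.4%, beside 37.6% of all genes). At 3 h, 14 rose and 2 fell with MET∆14, beside 15.5% and 16.1% of all genes. With wt MET 7 rose and 1 fell at 3 h, beside 10.3% and 7.16%. MICAL2, of the actin-oxidising MICAL family, rose from 46.9 to 55.8 CPM to 282 to 321 CPM at 3 h with MET∆14 (log2 fold change 2.55, SE 0.112) and from 142 to 155 CPM to 159 to 171 CPM with wt MET (0.15, SE 0.105). In the wt MET line MICAL2 rose later and less, at 6 h (0.42, SE 0.105) and 12 h (0.59, SE 0.105), and its responses differed (adjusted p = 1.96e-07, edgeR). FLT1, a VEGF receptor that can pair with neuropilins, rose at 6 h with MET∆14 from 3.91 to 5.51 CPM to 12.0 to 20.1 CPM (1.77, SE 0.269), and had at most 1 count in any wt MET library. CDK5R1, an activator of the kinase CDK5 that phosphorylates collapsin response mediators, rose by 3 h with MET∆14 (1.58, SE 0.212). It stayed near this value at 6 h (1.58, SE 0.209) and 12 h (1.63, SE 0.212). With wt MET only the 12 h value of CDK5R1 passed (0.79, SE 0.203), and its responses differed (adjusted p = 0.0202, edgeR). DPYSL2, a collapsin response mediator, fell in both lines, most at 6 h, with a log2 fold change of -2.60 (SE 0.155) with wt MET, from 57.7 to 77.3 CPM to 10.2 to 12.0 CPM, and of -0.95 (SE 0.149) with MET∆14. RND1, a small GTPase that binds plexins, rose with wt MET from 10.9 to 11.9 CPM to 46.7 to 58.4 CPM at 6 h (2.21, SE 0.140) and lay between 0.185 and 0.489 CPM with MET∆14. FURIN, a protease that cleaves class 3 semaphorins and the MET precursor, rose at 6 h with wt MET (1.05, SE 0.0933) and with MET∆14 (0.29, SE 0.0912), and these responses differed (adjusted p = 0.00183, edgeR). DCBLD2, a membrane protein with neuropilin-like domains, was named after its values were seen. With MET∆14 it rose from 406 to 446 CPM to 1300 to 1340 CPM at 6 h (1.63, SE 0.103), and with wt MET its 6 h value was -0.02 (SE 0.101) and its 12 h value, which passed, 0.33 (SE 0.101). MET rose at 6 h and 12 h with wt MET (0.28 and 0.29, SE 0.0865 each) and no time passed with MET∆14.

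Across the 8 libraries of a line, which share their time points and depth, members were compared by Pearson's r of log2 CPM as a description. With MET∆14, NRP1 and NRP2 had r = 0.95, NRP2 and SEMA4B 0.93, NRP1 and SEMA4B 0.90, SEMA3F and PLXNB2 0.95, and SEMA3A and SEMA3B -0.94. These pairs were picked for their r with MET∆14, and with wt MET they had 0.65, 0.28, 0.61, 0.65 and -0.12. Other pairs had high r with wt MET, among them SEMA4B and PLXNA1 (0.94), SEMA3B and SEMA4B (0.89) and NRP1 and SEMA3A (0.85), and with MET∆14 these had 0.43, -0.66 and 0.37. The genes outside the family with the pattern most like that of NRP2 with MET∆14 were NPC1 (r = 0.997), ZNF131 (0.996) and TOP1 (0.991), and the most like PLXNB1 with wt MET were ASPM (0.993), CORO1B (0.991) and BUB1B (0.985), each over 8 libraries. ASPM, a mitotic spindle gene, went from 41.6 to 44.6 CPM at 0 h to 11.6 to 15.4 CPM at 12 h in that line, and NPC1 from 97.0 to 99.1 CPM at 0 h to 140 to 145 CPM at 3 h with MET∆14.

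The members lie on 6 chromosomes of hg38 and are protein-coding. SEMA3A spans chr7:83955777-84492724 and SEMA3C chr7:80742538-80922359, 3033418 bases apart on the minus strand. SEMA3B spans chr3:50267558-50277546, SEMA3F chr3:50155045-50189075, PLXNB1 chr3:48403854-48430086 and PLXNA1 chr3:126982693-127037389. NRP2 is at chr2:205681990-205798133, NRP1 at chr10:33177492-33336262, SEMA4B at chr15:90160604-90229679 and PLXNB2 at chr22:50274979-50307646. Exons of genes on the opposite strand cover 4.9% of the exon length of NRP1, 2.3% of that of SEMA3F, 1.1% of that of NRP2 and 0.1% of that of SEMA3B, and the use of strand in counting was not stated, so reads in these stretches cannot be assigned. SEMA3B also shares 1.1% with a gene on its own strand.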

How the data were processed

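Whole-number counts of reads per gene were deposited by the authors without normalization, after adapter trimming and mapping with STAR to hg38. The submitters' processing notes name STAR 2.5.0 and RSEM 1.3.2 without their roles, and the counting tool, annotation and use of strand are not given in the sources used here. Table columns of the wt MET line spell its name differently from the sample titles and were matched through the remainder of the column name. Cells with amplified MET were not part of the comparisons.

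The tests used edgeR 4.0.16 (with limma 3.58.1, in R 4.3.3) on the counts of all 16 libraries, with filterByExpr (minimum count 10, minimum total 15), TMM scaling, 1 coefficient per condition and robust quasi-likelihood F tests. Benjamini-Hochberg adjustment covered all 15067 tested genes, with a threshold of 0.05. Total counts ranged from 10158590 to 23909304 per library, and the common biological coefficient of variation was 0.0868. An additive model of line and time followed the study's formula. Log2 CPM used a prior count of 2. Exon lengths came from the GENCODE annotation and promoter windows from RefSeq. Intervals are normal 95% intervals of the fitted value. The SEs and intervals rest on a spread per gene shared by all 16 libraries, and do not measure the spread within a single condition.

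The members and gene lists were chosen with earlier results of these data known. Of each list, up to 3 genes per line were named, those with the largest single-time change among genes that passed at any time and averaged at least 1 in log2 CPM, and for the member that changed most in each line the 3 genes of most similar log2 CPM (mean of at least 3). MET was always named. Alternatives were DESeq2 1.42.0, its size factors in edgeR, no filter, at least 10 counts in every library, a replicate block, each line alone, an absolute log2 fold change of at least 1, and each library left out. The scripts were tested on simulated counts.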

Additional observations from a re-analysis of the deposited data

Results flagged for a closer look

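In 7 genes the response to HGF differed between MET∆14 and wt MET by the test of the difference itself (edgeR's quasi-likelihood F test over 3 time points, Benjamini-Hochberg adjusted). The adjusted p was 2.9e-06 for SEMA3A, 7.37e-06 for NRP2, 2.39e-05 for SEMA4B, 0.000172 for NRP1, 0.00103 for SEMA3F, 0.00133 for SEMA3C and 0.0201 for PLXNB2, each with 2 replicates per condition. The same test was passed by 37.6% of all genes. At 3 h the log2 fold changes with MET∆14 and wt MET were 0.57 and -0.31 for SEMA3A, 2.0 and -0.20 for NRP2, 0.94 and -0.16 for SEMA4B, 0.50 and -0.40 for NRP1, -0.36 and 0.69 for SEMA3F, 0.23 and -0.22 for SEMA3C and -0.24 and 0.14 for PLXNB2. The squamous markers, at 2350 to 3340 CPM with MET∆14 and 0.97 to 3.1 CPM with wt MET, separate the same libraries, and their part in these differences was not tested.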

How the results depend on the processing

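Leaving out 1 library at a time, which leaves a single sample in its condition and assumes that it varies like the other groups, gave 0 to 4 members passing at 3 h, 2 to 5 at 6 h, 2 to 5 at 12 h and 4 to 8 over all times in the wt MET line. For MET∆14 it was 5 to 9 at 3 h, 8 to 9 at 6 h, 6 to 8 at 12 h and 8 to 10 at any time. The difference of the responses gave 6 to 9, the difference at 0 h 9 throughout and the shared time effect 2 to 3. At 3 h with wt MET, 1 member passed without either library of 0 h or without replicate 2 of 3 h, 0 without replicate 1 of 3 h, and 4 without either 12 h MET∆14 library, as did 5 at 6 h. At 12 h with wt MET, 2 passed without replicate 1 of 0 h. At 3 h with MET∆14, 5 passed without replicate 1 of 0 h or either library of 3 h.

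In the fits with 1 library left out, the number of all genes passing changed too, as given above for the response at any time. The ranges of the member counts can therefore not be read as specific to these genes. A minimum absolute log2 fold change of 1 left 0 members in every wt MET test. With MET∆14 this minimum left 1, 2 and 1 members at 3, 6 and 12 h and 2 at any time (SEMA3A and NRP2). For the shared time effect it left 0. Without a filter 6 passed the shared time effect, and with the wt MET line fitted alone 4 passed at 3 h. The cause was not tested. The genes passing at any time in all went from 6079 to 7654 with the wt MET line fitted alone. With the MET∆14 line fitted alone, 7, 9 and 6 passed at 3, 6 and 12 h and 8 at any time, as PLXNB1 was lost at 3 h, 12 h and any time and SEMA3C at 12 h. There the genes passing at any time in all went from 8157 to 6357.

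No value that passed the test changed sign. PLXNB1 at 3 h with wt MET was 0.0078 without a filter and 0.0036 in the line alone, and -0.0499 to 0.046 with libraries left out. Other values that changed sign with a library left out were, with wt MET, SEMA3B (-0.20 to 0.038), SEMA4B (-0.30 to 0.024) and PLXNA1 (-0.21 to 0.19) at 3 h, SEMA3B (-0.24 to 0.002) at 6 h and NRP2 (-0.20 to 0.13) at 12 h, with MET∆14 PLXNA1 at 12 h (-0.22 to 0.21), and SEMA3B at 0 h (-0.22 to 0.019).

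Replicates of the same number did not deviate together (r -0.159 to 0.035), so the number names a sample only. With the replicate number as a block the counts at any time stayed at 6 and 9, and SEMA4B at 6 h with wt MET (-0.29, adjusted p = 0.055, edgeR) and SEMA3C at 12 h with MET∆14 (-0.20, adjusted p = 0.0621) no longer passed, while no other call of a member changed.

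With 2 replicates and 10158590 to 23909304 counts per library, SEMA3F with wt MET (37 to 85 counts) is the least precise member.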
